A study of Homo sapiens with 6 samples.

Results

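The 35 genes described here encode aminoacyl-tRNA synthetases. Members were chosen by gene name from a fixed list of 35 symbols with no threshold on a measured value beyond a count minimum; the list itself was drawn up with earlier results of these data known. All 35 names were found among the 20333 gene intervals of the deposited table, each with at least 10 counts in every library. They are split by name into 19 cytosolic genes, whose symbols end in 1 or are FARSA or FARSB, and 16 mitochondrial genes, whose symbols end in 2. The genes for the aspartyl enzymes are not on the list.

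The assay was PRO-seq, precision run-on sequencing of nuclei, which labels and sequences the RNA that engaged polymerases are making, so its counts report transcription in progress. Every library came from T47D, a luminal breast cancer cell line with the genotype label ERpos HER2neg (estrogen receptor positive, HER2 negative), in medium complete with growth factors. There were 3 arms, each treated for 5 h: DMSO, the solvent control; 500 nM GDC0068, a catalytic inhibitor of the AKT kinases; and 100 nM Degrader, the compound INY-05-040, which removes AKT protein. Per the series' design text, the doses were chosen for comparable suppression of signalling downstream of AKT. Each arm had 2 libraries, numbered 1 and 2, from 2 independent experiments in this line, so p-values measure the spread between these libraries.

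Aminoacyl-tRNA synthetases join each amino acid to its transfer RNA, and the charged tRNAs feed the ribosome. The cytosol and the mitochondrion run separate translation systems, and both sets of enzymes are encoded in the nucleus. GARS1 and KARS1 each make the enzyme for both compartments, EPRS1 carries the glutamyl and the prolyl activity in 1 protein, and FARSA and FARSB are the subunits of the cytosolic phenylalanyl enzyme. Several cytosolic enzymes sit in a multisynthetase complex held together by the scaffold proteins AIMP1, AIMP2 and EEF1E1. Many cytosolic synthetase genes are known targets of ATF4, a transcription factor made when uncharged tRNA or other stress slows translation initiation. Signalling from AKT through mTORC1 is also known to promote the production of ATF4.

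Totals per library lay between 25371819 and 32192576 counts, and the synthetase genes had between 140 and 8991 counts in a library, which gives a counting error of 8.45% to 1.06%. All 7 luminal markers listed were in the table, with a summed level of 5122 to 5461 CPM (counts scaled to library size, per 1e6) over the 6 libraries. Of the markers of other cell types, only CD14 was in the table, with 10 to 17 counts in a library. The basal, fibroblast and endothelial markers searched for, and the leukocyte markers PTPRC and CD3E, were absent from it, so their levels could not be read. The deposited intervals are given as chromosome, start and end, counted from 1, without a named build. The submitters' processing notes name hg38, GRCh38 and the fruit fly build dm3 with no role. In bulk libraries such as these, fewer transcribing cells and less transcription per cell cannot be told apart.

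Per kilobase of interval, the cytosolic and mitochondrial genes had similar median levels with DMSO. Which part of a gene was counted is not stated, so CPM per kb over the whole interval may not rank genes by transcription. The median was 1.90 CPM per kb for the cytosolic genes and 2.26 CPM per kb for the mitochondrial genes, against 1.69 CPM per kb over all genes. Among the cytosolic genes, AARS1, the alanyl enzyme, was the highest at 4.51 ± 0.05 CPM per kb (SD, n = 2), and the beta subunit gene FARSB was the lowest at 0.943 ± 0.004 (SD, n = 2). QARS1, the glutaminyl enzyme, followed AARS1 at 4.25 ± 0.05 CPM per kb (SD, n = 2), below AARS1 in both libraries. The mitochondrial genes spread more widely. VARS2, the mitochondrial valyl enzyme, had 6.19 ± 0.06 CPM per kb (SD, n = 2), and WARS2, the mitochondrial tryptophanyl enzyme, had 0.276 ± 0.024 (SD, n = 2), at the 9.35th percentile of all genes. FARS2, the mitochondrial phenylalanyl enzyme, had the most CPM of the 35 genes, but its interval is 510.6 kb long and its level was 0.555 CPM per kb.

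**Figure D1:**
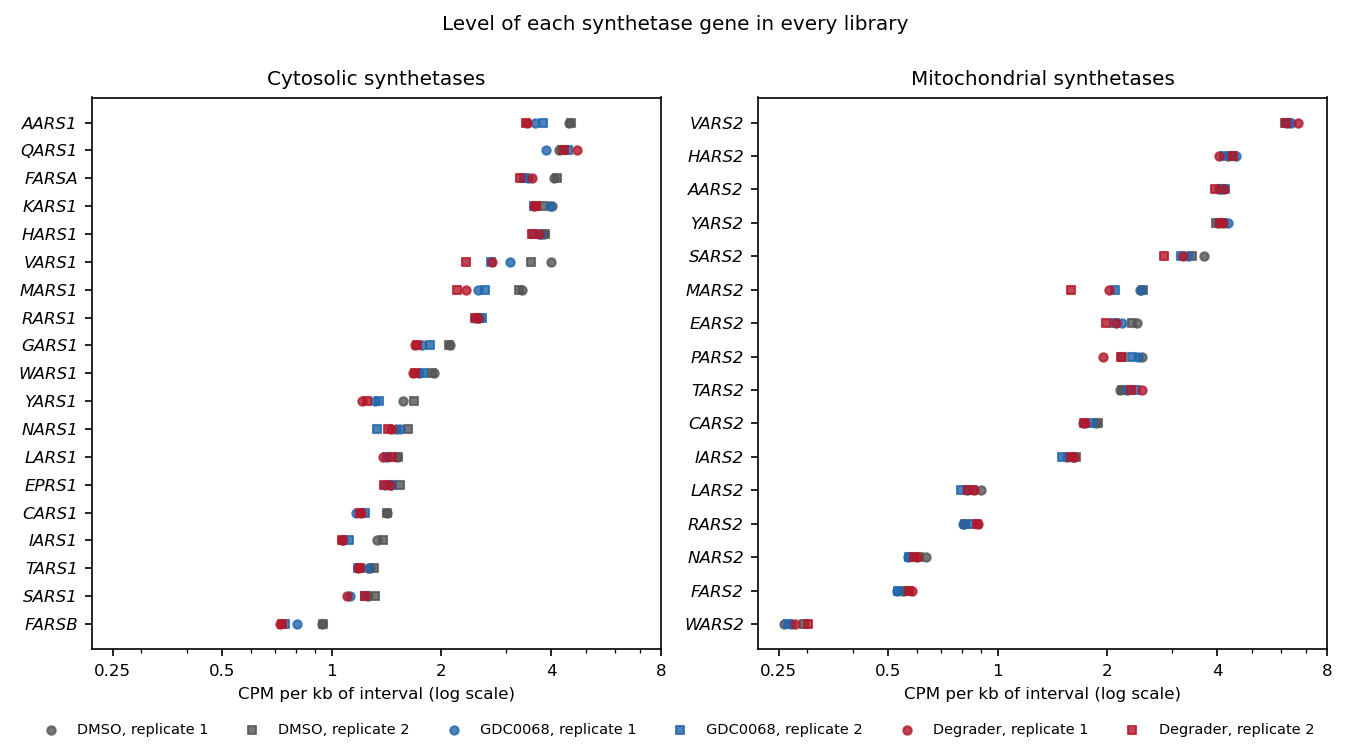
Nascent transcription of the 35 synthetase genes in CPM per kb of interval on a log axis, with a point for each of the 6 libraries, coloured by arm, ordered by the DMSO mean within each group. With DMSO the cytosolic genes run from 0.943 (FARSB) to 4.51 (AARS1) and the mitochondrial genes from 0.276 (WARS2) to 6.19 (VARS2).

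With the Degrader, 10 of the 19 cytosolic synthetase genes fell and none rose, while 1 of the 16 mitochondrial genes, EARS2, fell and none rose (edgeR quasi-likelihood test over all genes, with a call where the p adjusted by Benjamini-Hochberg is under 0.05). The genes that fell were AARS1, CARS1, GARS1, IARS1, MARS1, VARS1, WARS1, YARS1, FARSA and FARSB. Every adjusted p given comes from that edgeR test unless another fit is named. Over all 19902 genes tested, 15.3% were called with the Degrader, 7.88% as lower and 7.39% as higher. The median log2 fold change was -0.18 over the cytosolic genes, -0.03 over the mitochondrial genes and -0.00 over all genes tested. In 18 of the 19 cytosolic genes both Degrader libraries were below both DMSO libraries, which held for 29.2% of all genes. The exception was QARS1, in which both Degrader libraries were above both DMSO libraries, as in 29.3% of all genes. A fit with the replicate number as a block called 11 cytosolic and 4 mitochondrial genes as lower with the Degrader, against 15.7% of all genes.

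**Figure D2:**
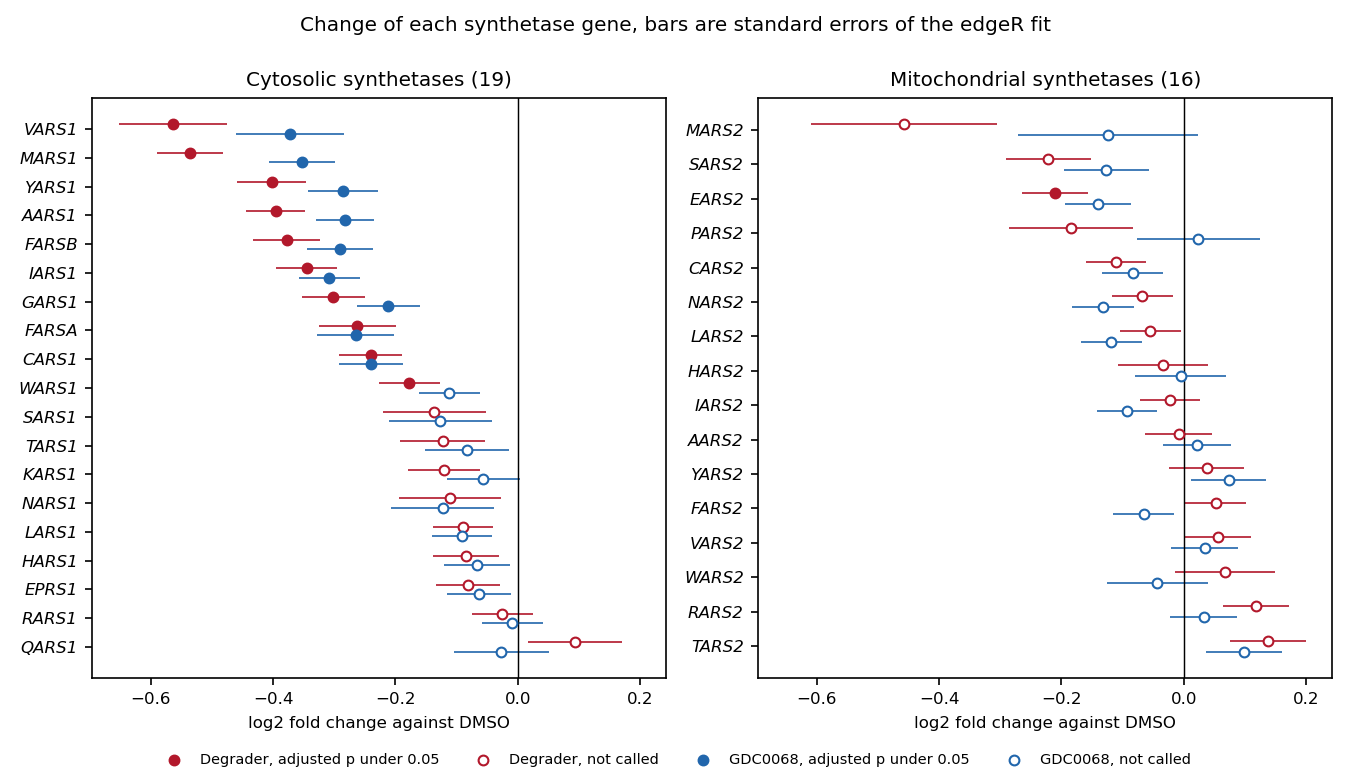
Log2 fold change of each of the 35 synthetase genes with the Degrader and with GDC0068, each against DMSO, with bars of 1 standard error from the edgeR fit and filled points for called genes. The cytosolic genes reach -0.56 with the Degrader (VARS1) and most lie below 0, while the mitochondrial genes lie on both sides of 0. The drugs share the DMSO libraries.

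The largest falls were in VARS1 and MARS1. MARS1, the methionyl enzyme that also charges the initiator tRNA (ENSG00000166986, chromosome 12, 57488071 to 57516652, plus strand), had 94.9 and 93.4 CPM with DMSO and 66.9 and 63.0 CPM with the Degrader. The MARS1 interval overlaps 60 bp of DDIT3 on the other strand, where counting by strand is not stated. Its Degrader libraries were both well below the DMSO libraries, a log2 fold change of -0.54 (SE 0.0539, adjusted p = 2.00e-04). VARS1, the valyl enzyme, which associates with elongation factor 1 (ENSG00000204394, chromosome 6, 31777518 to 31795730, minus strand), had 72.9 and 64.2 CPM with DMSO and 50.2 and 42.6 CPM with the Degrader. Its libraries differed more within an arm, with library 1 the higher in each, but the arms did not overlap and the log2 fold change was -0.56 (SE 0.0890, adjusted p = 0.00204).

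AARS1 (ENSG00000090861, chromosome 16, 70252295 to 70289506, minus strand) had 166 and 169 CPM with DMSO and 128 and 127 CPM with the Degrader. The arms were apart by far more than the libraries within them, at a log2 fold change of -0.40 (SE 0.0479, adjusted p = 5.38e-04). YARS1, the tyrosyl enzyme, some of whose fragments are secreted as cytokines (ENSG00000134684, chromosome 1, 32775239 to 32818182, minus strand), had 67.5 and 72.3 CPM with DMSO and 52.1 and 53.6 CPM with the Degrader. No Degrader library of YARS1 came near the DMSO libraries, and the log2 fold change was -0.40 (SE 0.0566, adjusted p = 0.00113). Its interval overlaps 530 bp of S100PBP on the other strand, and the use of strand in counting is not stated.

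IARS1, the isoleucyl enzyme of the multisynthetase complex (ENSG00000196305, chromosome 9, 92210207 to 92293695, minus strand), had 111 and 116 CPM with DMSO and 88.9 and 89.2 CPM with the Degrader. Its Degrader libraries were nearly equal and both below DMSO, at a log2 fold change of -0.35 (SE 0.0496, adjusted p = 0.00126). FARSB (ENSG00000116120, chromosome 2, 222566899 to 222656092, minus strand) had 83.9 and 84.4 CPM with DMSO and 64.5 and 65.0 CPM with the Degrader, a log2 fold change of -0.38 (SE 0.0544, adjusted p = 0.00126). FARSA, the alpha subunit that works with it (ENSG00000179115, chromosome 19, 12922479 to 12933709, minus strand), had 45.6 and 46.6 CPM with DMSO and 39.9 and 37.0 CPM with the Degrader, a log2 fold change of -0.26 (SE 0.0632, adjusted p = 0.0175). Both subunit genes thus had Degrader libraries below every DMSO library. The call for FARSA was lost without DMSO library 1, DMSO library 2 or Degrader library 2, at log2 fold changes of -0.28, -0.25 and -0.21.

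GARS1, the glycyl enzyme of both compartments (ENSG00000106105, chromosome 7, 30594884 to 30634033, plus strand), had 82.5 and 82.0 CPM with DMSO and 66.3 and 67.2 CPM with the Degrader. The arms did not overlap and the log2 fold change was -0.30 (SE 0.0514, adjusted p = 0.00308). CARS1, the cysteinyl enzyme (ENSG00000110619, chromosome 11, 3000922 to 3057362, minus strand), had 80.1 and 79.9 CPM with DMSO and 67.7 and 67.7 CPM with the Degrader, a log2 fold change of -0.24 (SE 0.0516, adjusted p = 0.00995). WARS1, the tryptophanyl enzyme, known for its induction by interferon (ENSG00000140105, chromosome 14, 100333802 to 100376279, minus strand), had 81.2 and 80.0 CPM with DMSO and 70.8 and 71.8 CPM with the Degrader, the smallest called change of the 10 at -0.18 (SE 0.0498, adjusted p = 0.0334). In each of these 3 genes every Degrader library was below every DMSO library. The CARS1 interval overlaps 592 bp of RNU1-91P on the same strand. Leaving out DMSO library 1, Degrader library 1 or Degrader library 2 ended the call for CARS1, with the log2 fold change at -0.24 in each case. The call for WARS1 ended without any one of the 4 DMSO and Degrader libraries, at -0.19 to -0.17, and by DESeq2's Wald test.

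**Figure D3:**
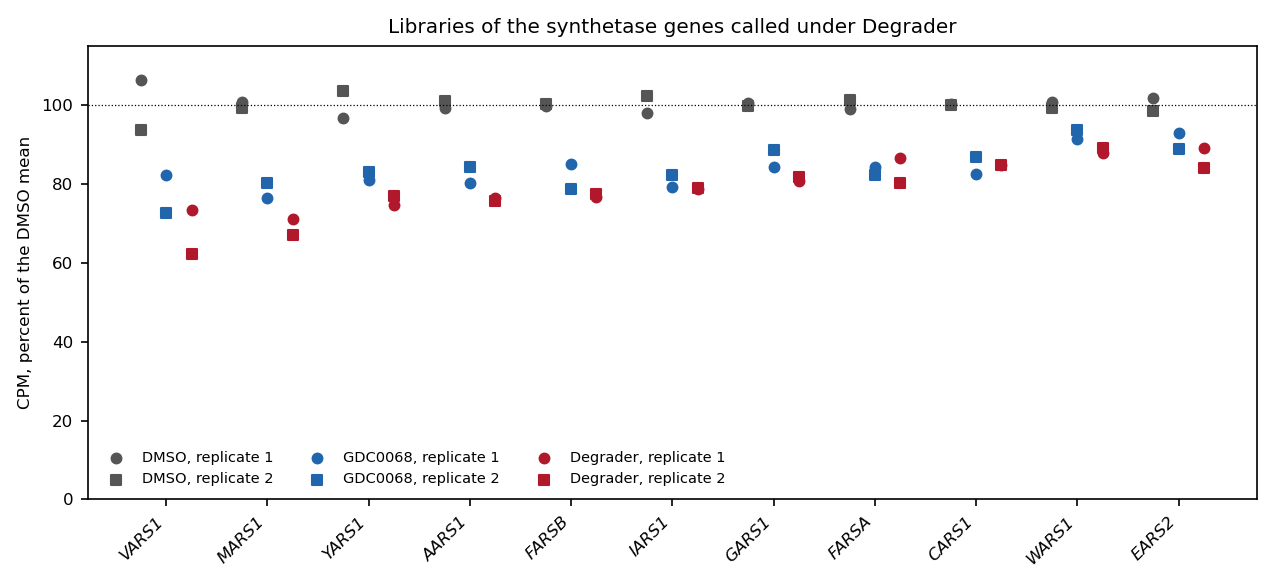
CPM of the 11 synthetase genes called with the Degrader, as a percent of each gene's DMSO mean (dotted line), with a point for each of the 6 libraries. For every gene both Degrader points lie below both DMSO points, and in VARS1 replicate 1 lies above replicate 2 in every arm.

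The other 9 cytosolic genes were not called. EPRS1 had a log2 fold change of -0.08, HARS1 (histidyl) -0.08, KARS1 -0.12, LARS1 (leucyl) -0.09, NARS1 (asparaginyl) -0.11, SARS1 (seryl) -0.14 and TARS1 (threonyl) -0.12. These 7 were all lower with the Degrader in both libraries, and their adjusted p-values do not show that they stayed level. RARS1, the arginyl enzyme, had 83.5 and 83.4 CPM with DMSO and 82.6 and 81.4 CPM with the Degrader, a log2 fold change of -0.03 with a 95% interval of -0.13 to 0.08. QARS1 (ENSG00000172053, chromosome 3, 49095932 to 49104757, minus strand) had 37.2 and 37.8 CPM with DMSO and 41.7 and 38.4 CPM with the Degrader, a log2 fold change of 0.09 (adjusted p = 0.455). With the replicate number as a block, KARS1 was also called as lower (adjusted p = 0.0418), and 15.7% of all genes were. The 10 called genes lie on 10 different chromosomes and had a median length of 40.8 kb and a median level of 2.00 CPM per kb with DMSO, against 24.3 kb and 1.56 CPM per kb for the 9 that were not called.

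With GDC0068, 9 of the 19 cytosolic genes fell and none rose, and no mitochondrial gene was called in the fit without the replicate block. The 9 were the genes that fell with the Degrader other than WARS1; the contrasts share the DMSO libraries, so these lists are not independent. Over all genes tested 3.58% were called with GDC0068, 1.88% as lower and 1.7% as higher. The median log2 fold change was -0.13 over the cytosolic genes, -0.05 over the mitochondrial genes and 0.01 over all genes tested. All 19 cytosolic genes had a negative log2 fold change. In 14 of them both GDC0068 libraries were below both DMSO libraries, which held for 24% of all genes. At an unadjusted p under 0.05, 3 of the 16 mitochondrial genes were lower with GDC0068 in edgeR's test, where 20% of all genes differed in either direction. A fit with the replicate number as a block called 9 cytosolic and 3 mitochondrial genes as lower with GDC0068, against 8.91% of all genes.

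MARS1 had 71.9 and 75.5 CPM with GDC0068, below its DMSO libraries at 94.9 and 93.4 CPM, a log2 fold change of -0.35 (SE 0.0536, adjusted p = 0.00886). IARS1 had 89.6 and 93.1 CPM with GDC0068, also clear of DMSO, at a log2 fold change of -0.31 (SE 0.0496, adjusted p = 0.0101). AARS1 had 135 and 141 CPM with GDC0068, a log2 fold change of -0.28 (SE 0.0478, adjusted p = 0.0126). For these 3 genes the GDC0068 libraries lay between the Degrader and the DMSO libraries with no overlap. VARS1 had 56.4 and 49.8 CPM with GDC0068, the lowest log2 fold change of the group at -0.37 (SE 0.0885, adjusted p = 0.0433). The GDC0068 libraries of VARS1 were below both DMSO libraries but overlapped the Degrader libraries, since the latter ran from 42.6 to 50.2 CPM.

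FARSB had 71.5 and 66.2 CPM with GDC0068, a log2 fold change of -0.29 (SE 0.0544, adjusted p = 0.0180), and YARS1 had 56.6 and 57.9 CPM, also -0.29 (SE 0.0565, adjusted p = 0.0228). CARS1 had 65.9 and 69.5 CPM, a log2 fold change of -0.24 (SE 0.0517, adjusted p = 0.0317). Every GDC0068 library of these 3 genes was below the DMSO libraries. FARSA had 38.9 and 37.9 CPM with GDC0068, a log2 fold change of -0.27 (SE 0.0634, adjusted p = 0.0442), and GARS1 had 69.3 and 72.7 CPM, at -0.21 (SE 0.0514, adjusted p = 0.0455). WARS1, with 73.7 and 75.5 CPM, was below DMSO in both libraries without passing the test (log2 fold change -0.11, adjusted p = 0.237). RARS1 was the cytosolic gene nearest to 0, with 81.2 and 84.6 CPM and a log2 fold change of -0.01.

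The calls with GDC0068 depended on which libraries were in the fit. The count of 9 cytosolic genes became 0 without DMSO library 1, where 0.0804% of all genes were called as lower, and 1 without DMSO library 2 (0.432% of all genes). It was 2 without GDC0068 library 1 (0.814%), 3 without GDC0068 library 2 (0.271%), 8 without Degrader library 1 (1.58%) and 6 without Degrader library 2 (1.09%). MARS1 kept its call except without DMSO library 1. The cytosolic median lay between -0.21 and -0.13 in those fits. With the Degrader, the count of 10 was 7 without DMSO library 1 (2.27% of all genes), 8 without DMSO library 2 (5.07%), 10 without GDC0068 library 1 (8.36%) or library 2 (8.31%), 8 without Degrader library 1 (4.7%) and 7 without Degrader library 2 (1.78%). AARS1, GARS1, IARS1, MARS1, VARS1, YARS1 and FARSB kept their calls with the Degrader in all of these fits.

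The mitochondrial genes changed in either direction with the Degrader, and 10 of 16 had a negative log2 fold change and 6 a positive one. Over the 19902 genes tested, 10016 were negative and 9886 positive. EARS2, the glutamyl enzyme that also feeds the pathway to mitochondrial glutaminyl-tRNA (ENSG00000103356, chromosome 16, 23522016 to 23557350, minus strand), had 85.1 and 82.3 CPM with DMSO and 74.5 and 70.2 CPM with the Degrader. Its Degrader libraries were below both DMSO libraries, and it fell by 0.21 on the log2 scale (SE 0.0543, adjusted p = 0.0236). The call ended without DMSO library 1, DMSO library 2 or Degrader library 2, at log2 fold changes of -0.19, -0.24 and -0.17. With GDC0068 EARS2 had 77.7 and 74.3 CPM, a log2 fold change of -0.14 (adjusted p = 0.176).

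MARS2, the mitochondrial methionyl enzyme (ENSG00000247626, chromosome 2, 197705369 to 197708395, plus strand), had the lowest log2 fold change of the mitochondrial group. It had 7.44 and 7.57 CPM with DMSO, 7.47 and 6.34 CPM with GDC0068, and 6.13 and 4.80 CPM with the Degrader. The Degrader libraries were below the others, but the log2 fold change of -0.46 (SE 0.151) did not pass the test (adjusted p = 0.0633). The MARS2 interval lies wholly inside another same-strand interval, AC011997.1, so its reads cannot be assigned to MARS2 alone. SARS2, the mitochondrial seryl enzyme, had 57.1 and 52.8 CPM with DMSO, 51.5 and 49.3 CPM with GDC0068 and 49.9 and 44.4 CPM with the Degrader. Its log2 fold change of -0.22 missed the threshold (SE 0.0694, adjusted p = 0.0521), and 99.1% of its interval is shared with a same-strand interval, AC011455.2.

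At the other end of the mitochondrial group, TARS2, the threonyl enzyme, had 43.7 and 44.4 CPM with DMSO, 45.8 and 48.5 CPM with GDC0068 and 50.1 and 46.8 CPM with the Degrader. Each drug library was above each DMSO library, as in 29.3% of all genes for the Degrader and 26.1% for GDC0068, with log2 fold changes of 0.14 (adjusted p = 0.158) and 0.10 (adjusted p = 0.406) for the Degrader and GDC0068. NARS2, the asparaginyl enzyme, followed EARS2 as the next lowest of the group with GDC0068, with 88.3 and 84.3 CPM with DMSO and 78.5 and 79.0 CPM with GDC0068 (log2 fold change -0.13, adjusted p = 0.167). With the replicate number as a block, the called mitochondrial genes were CARS2, EARS2, MARS2 and SARS2 with the Degrader (adjusted p = 0.0234 for CARS2, 0.00923 for MARS2 and 0.00130 for SARS2), all lower, against 15.7% of all genes. The same block gave EARS2, LARS2 and NARS2 with GDC0068 (adjusted p = 0.0185, 0.0178 and 0.0243), all lower, against 8.91% of all genes.

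Summed over the genes, nascent transcription of the cytosolic synthetases was 1467 and 1478 CPM with DMSO, 1289 and 1299 CPM with GDC0068 and 1253 and 1239 CPM with the Degrader. The mitochondrial sum was 1228 and 1224 CPM with DMSO, 1179 and 1177 CPM with GDC0068 and 1223 and 1192 CPM with the Degrader. The cytosolic share of the summed CPM of the 35 genes was therefore 54.4% and 54.7% with DMSO. It was 52.2% and 52.5% with GDC0068, and 50.6% and 51.0% with the Degrader. These CPM shares, in which long intervals weigh more, lay closer within an arm than between arms. FARS2, the longest interval, had a mean of 283 CPM with DMSO, 271 CPM with GDC0068 and 294 CPM with the Degrader. Per kb, the cytosolic sum was 46.8 and 46.7 with DMSO, 41.4 and 41.5 with GDC0068, and 40.8 and 39.6 with the Degrader. The mitochondrial sum per kb was 38.4 and 38.0 with DMSO, 38.2 and 37.3 with GDC0068, and 37.4 and 36.1 with the Degrader. On that scale the cytosolic shares of the Degrader and GDC0068 libraries overlapped, and both drugs stayed below DMSO.

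Setting the enzymes for the same amino acid side by side gave 17 cytosolic and mitochondrial pairs, in which EPRS1 and FARS2 each stand in 2 pairs. The change of the cytosolic gene was the lower of the pair in 14 of 17 pairs with the Degrader and in 14 of 17 with GDC0068, and in both libraries in 11 and 12 pairs. The median difference in log2 fold change, cytosolic minus mitochondrial, was -0.14 with the Degrader and -0.16 with GDC0068. The lowest values with the Degrader were -0.62 for valine, -0.44 for tyrosine, -0.43 for phenylalanine (FARSB with FARS2) and -0.39 for alanine. The exceptions with the Degrader were glutamate at 0.13, proline at 0.10 and serine at 0.08; with GDC0068 they were glutamate at 0.08, leucine at 0.03 and asparagine at 0.01. Among the 14 pairs with GDC0068, serine was at -4e-04, with -0.0187 and 0.00604 in libraries 1 and 2. SARS2 of the serine pair shares 99.1% of its interval with AC011455.2. The difference between the groups was not tested, since members are not replicates.

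**Figure D4:**
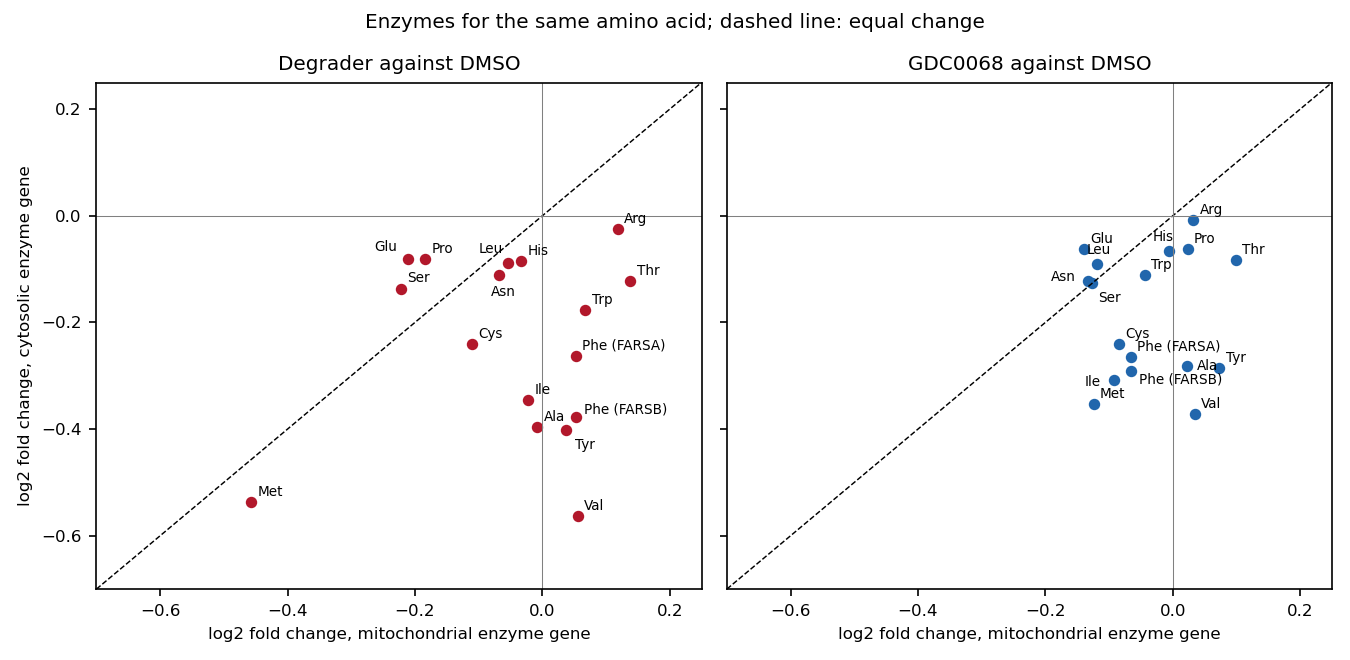
Log2 fold change of the cytosolic gene (vertical axis) against that of the mitochondrial gene (horizontal axis) for 17 pairs of synthetases for the same amino acid, with the Degrader (left) and GDC0068 (right), each against DMSO. With each drug 14 of 17 points lie below the dashed line of equal change, and valine is the farthest below it with the Degrader, at -0.62.

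Between the drugs no synthetase gene passed the test in the fit without the replicate block, where 0.266% of all genes did. At an unadjusted p under 0.05, 2 of the 19 cytosolic and 1 of the 16 mitochondrial genes differed in edgeR's test, where 14.1% of all genes did. MARS1 was lower with the Degrader than with GDC0068 by a log2 difference of -0.18 (SE 0.0545, 95% interval -0.30 to -0.06, adjusted p = 0.169), and both of its Degrader libraries were below both GDC0068 libraries. The log2 difference was -0.19 for VARS1 (95% interval -0.39 to 0.01, adjusted p = 0.366), in which the arms overlapped, and -0.11 for AARS1 (95% interval -0.22 to -0.01, adjusted p = 0.315). CARS1 and FARSA had differences of -0.00 and 0.00, with 95% intervals of -0.11 to 0.11 and -0.14 to 0.14, so at these doses a difference inside those bounds could not be resolved. QARS1 had 34.2 and 39.3 CPM with GDC0068, and its difference of 0.12 was the highest of the cytosolic group (adjusted p = 0.505).

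FARS2 had 280 and 287 CPM with DMSO, 269 and 272 CPM with GDC0068 and 297 and 291 CPM with the Degrader, so its arms did not overlap. The log2 difference between the drugs was 0.12 (adjusted p = 0.314), and neither drug's difference from DMSO passed the test. With the replicate number as a block, MARS1 (adjusted p = 0.00828), VARS1 (0.0111) and AARS1 (0.0401) were lower and FARS2 (0.0296) was higher with the Degrader than with GDC0068. That fit called 5.35% of all genes as lower and 5.03% as higher.

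Sorted by the catalytic fold, 7 of 18 class I enzymes and 4 of 16 class II enzymes fell with the Degrader, and 5 and 4 fell with GDC0068. Over all genes tested, 7.88% fell with the Degrader and 1.88% with GDC0068. EPRS1, whose 2 activities belong to different classes, is not counted in either. Among the 7 enzymes of the multisynthetase complex on the list, 2 fell with each drug, IARS1 and MARS1. AIMP2, a scaffold protein of that complex, had 80.0 and 73.4 CPM with DMSO, 64.0 and 58.6 CPM with GDC0068 and 61.6 and 53.5 CPM with the Degrader. Among the 3 scaffold genes it alone passed the test, at log2 fold changes of -0.42 with the Degrader (SE 0.0747, adjusted p = 0.00415) and -0.33 with GDC0068 (SE 0.0746, adjusted p = 0.0379). Its call with the Degrader ended without Degrader library 2, and that with GDC0068 without any one of the 4 DMSO and GDC0068 libraries. EEF1E1 was also called as lower with the Degrader in the blocked fit (log2 fold change -0.17, adjusted p = 0.161, blocked 0.0365).

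Of 14 other genes of tRNA charging and supply, 1 fell and 2 rose with the Degrader, against 7.88% and 7.39% of all genes. SEPSECS, which completes selenocysteine on its tRNA, had 21.0 and 21.5 CPM with DMSO, 27.1 and 26.9 CPM with GDC0068 and 33.2 and 32.1 CPM with the Degrader. The arms were fully separate, and it rose by a log2 fold change of 0.62 with the Degrader (SE 0.0763, adjusted p = 5.69e-04) and of 0.35 with GDC0068 (SE 0.0773, adjusted p = 0.0347). The call with GDC0068 ended without any one of the 6 libraries and in the fit to the 4 libraries compared. GATB, a subunit of the amidotransferase that makes mitochondrial glutaminyl-tRNA, rose with the Degrader (log2 fold change 0.27, SE 0.0566, adjusted p = 0.00897), and lost the call without DMSO library 1 or Degrader library 1. XPOT, the nuclear export receptor of tRNA, fell with the Degrader (log2 fold change -0.26, SE 0.0484, adjusted p = 0.00488), and lost the call without Degrader library 2. With the replicate number as a block, QRSL1 and YRDC were also lower with the Degrader (adjusted p = 0.0165 and 9.04e-05), which made 3 genes lower, and XPOT was also lower with GDC0068 (6.08e-04).

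Of 3 genes listed for the sensing of uncharged tRNA, EIF2AK4, GCN1 and IMPACT, 1 fell with the Degrader, against 7.88% of all genes. It was GCN1, which activates the kinase GCN2 (log2 fold change -0.25, SE 0.0563, adjusted p = 0.0133). The call for GCN1 ended without DMSO library 1 or Degrader library 2. In the blocked fit EIF2AK4, the gene of GCN2, was also lower with the Degrader (adjusted p = 0.00789), and GCN1 was lower with GDC0068 (9.04e-05). ATF4 itself had 61.0 and 65.8 CPM with DMSO, 64.7 and 68.2 CPM with GDC0068 and 55.2 and 60.4 CPM with the Degrader. It did not pass the test with either drug, at log2 fold changes of -0.13 with the Degrader (adjusted p = 0.194) and 0.07 with GDC0068 (adjusted p = 0.594). The blocked fit called it as lower with the Degrader than with DMSO (adjusted p = 0.0273) and than with GDC0068 (adjusted p = 0.00508).

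Over 19 genes comprising ATF4 and targets that are not synthetases, 5 fell and 1 rose with the Degrader, against 7.88% and 7.39% of all genes. None was called with GDC0068, where 6 had an unadjusted p under 0.05 in edgeR's test, as did 20% of all genes. The medians were -0.15 and -0.09. PSAT1, of serine synthesis, had 15.5 and 14.9 CPM with DMSO and 8.08 and 9.98 CPM with the Degrader (log2 fold change -0.75, SE 0.120, adjusted p = 0.00225), with no overlap. CEBPB, a partner of ATF4, fell by 0.42 on the log2 scale (SE 0.0881, adjusted p = 0.00943), and SHMT2, of mitochondrial one-carbon metabolism, fell by 0.39 (SE 0.0921, adjusted p = 0.0167). ATF3, a stress-induced factor, rose with the Degrader at a log2 fold change of 0.28 (SE 0.0526, adjusted p = 0.00528). The calls for CEBPB and ATF3 ended without DMSO library 1 or Degrader library 2, and that for SHMT2 without either of these or DMSO library 2. With the replicate number as a block, 10 of these 19 genes were lower and 4 higher with the Degrader, against 15.7% and 15.1% of all genes, and 5 were lower and 2 higher with GDC0068, against 8.91% and 8.87%. Among 9 other genes of mitochondrial translation, 1 fell with each drug, where 7.88% of all genes fell with the Degrader and 1.88% with GDC0068. It was GFM1, the elongation factor G of mitochondria, with the Degrader (log2 fold change -0.32, SE 0.0596, adjusted p = 0.00514) and with GDC0068 (-0.25, SE 0.0596, adjusted p = 0.0413). Its call with the Degrader ended without Degrader library 2, and that with GDC0068 in DESeq2's Wald test and without any one of the DMSO or GDC0068 libraries or Degrader library 2.

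The promoters of the synthetase genes were compared in RefSeq sequence of GRCh38.p14, 250 bases before to 50 bases after each gene's start. The table used held 30 of the 35 genes, 16 cytosolic and 14 mitochondrial, with starts within 94 bp of the deposited ones; LARS1, VARS1, YARS1, AARS2 and VARS2 were not matched. The letters TGATGNAA, a form of the composite element that ATF4 binds together with C/EBP proteins, were searched on both strands. These letters were chosen with the values known. They were present in 7 of the 16 cytosolic promoters (43.8%), in 1 of the 14 mitochondrial promoters (7.14%) and in 1.49% of the promoters of the 11152 genes of the deposited table that matched, and in 3.62% of all promoters in the sequence table. The windows are shown because they carry that difference, 5′ to 3′ on the strand of the gene, with the match in capitals.

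AARS1, chr16:70289660-70289719, minus strand: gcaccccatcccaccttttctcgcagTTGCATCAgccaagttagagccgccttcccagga
CARS1, chr11:3057407-3057436, minus strand: cggggcggcggTTGCATCAgattctaggaa
GARS1, chr7:30594819-30594877, plus strand: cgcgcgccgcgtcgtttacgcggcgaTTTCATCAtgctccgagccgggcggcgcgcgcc
IARS1, chr9:92293698-92293736, minus strand: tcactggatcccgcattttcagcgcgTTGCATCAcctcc
MARS1, chr12:57488053-57488082, plus strand: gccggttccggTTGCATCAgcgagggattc
NARS1, chr18:57621804-57621833, minus strand: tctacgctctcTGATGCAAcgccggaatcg
TARS1, chr5:33440956-33440985, plus strand: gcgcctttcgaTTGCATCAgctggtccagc
YARS2, chr12:32756061-32756120, minus strand: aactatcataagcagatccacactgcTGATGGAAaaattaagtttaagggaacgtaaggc

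In 6 of the 7 cytosolic genes the matched letters are TTGCATCA or their reverse complement TGATGCAA, and in GARS1 they are TTTCATCA. With position 1 as the first base of the RefSeq transcript and -1 the base before it, the matches begin at position -13 in IARS1, -4 in MARS1, -2 in CARS1, 3 in TARS1 and 15 in NARS1, and at -33 in GARS1 and -187 in AARS1. The match in YARS2, the only mitochondrial gene with one, begins at -197. Of the 7 cytosolic genes with the letters, AARS1, CARS1, GARS1, IARS1 and MARS1 fell with each drug, and NARS1 and TARS1 were not called. Their median log2 fold change was -0.30 with the Degrader and -0.24 with GDC0068. Of the 9 matched cytosolic genes without the letters, FARSA, FARSB and WARS1 fell with the Degrader, and FARSA and FARSB with GDC0068. The medians of these 9 were -0.12 and -0.07. VARS1 and YARS1, which fell with each drug, were not matched and stand in neither set. YARS2 had log2 fold changes of 0.04 and 0.07 and was not called. A match describes the letters in the window and is no measure of binding.

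**Figure D5:**
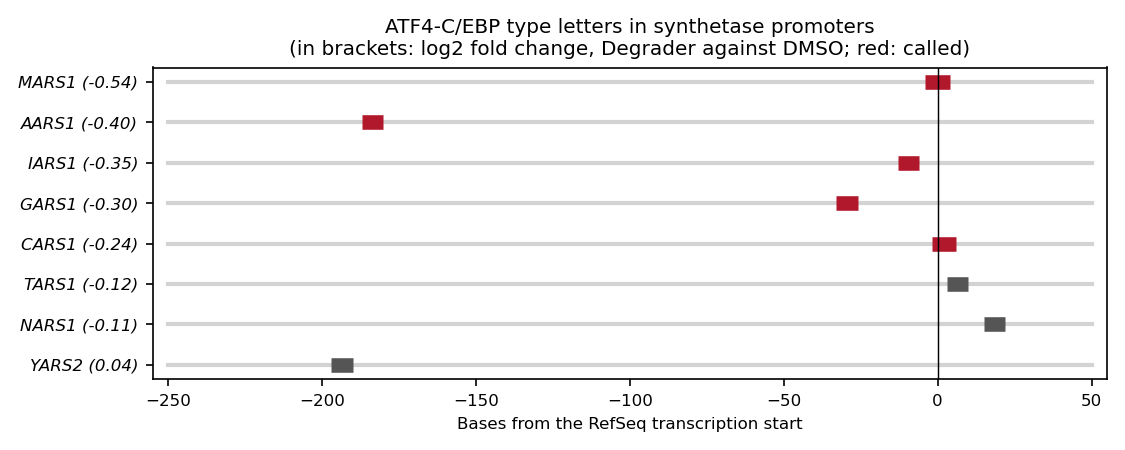
Position of each TGATGNAA match, on either strand, relative to the RefSeq start of the gene in bases, for the 8 synthetase genes whose promoter window holds it. Brackets give the log2 fold change with the Degrader and red marks called genes. The matches of 5 cytosolic genes begin between -13 and 15, and those of AARS1 and YARS2 begin at -187 and -197.

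The other letters searched on both strands were spread over both groups. CCGGAAG, of the kind bound by ETS factors, was in 8 of 16 cytosolic and 7 of 14 mitochondrial promoters, against 19.5% of the matched promoters. CACGTG, an E-box of the kind bound by MYC, was in 1 cytosolic promoter (IARS1) and 2 mitochondrial promoters (EARS2 and MARS2), against 10.1%, and GATTGG, the CCAAT box on its other strand, was in 3 cytosolic and 6 mitochondrial promoters, against 20.4%. None of their matches in a synthetase promoter overlapped a TGATGNAA match.

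HARS1 and HARS2, the histidyl enzymes of the cytosol and the mitochondrion, are transcribed away from each other from starts 85 bp apart on chromosome 5. The 84 bases between their starts are shown because a cytosolic and a mitochondrial member begin on either side of them. They are given on the strand of HARS2, with CCGGAAG on either strand in capitals.

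HARS1 to HARS2, chr5:140691371-140691454, plus strand: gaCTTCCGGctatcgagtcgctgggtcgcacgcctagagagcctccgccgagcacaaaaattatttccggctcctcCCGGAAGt

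HARS1 had 67.0 and 67.4 CPM with DMSO, 65.6 and 62.7 CPM with GDC0068 and 64.7 and 62.0 CPM with the Degrader. HARS2 had 33.7 and 34.6 CPM with DMSO, 35.3 and 32.8 CPM with GDC0068 and 31.9 and 34.8 CPM with the Degrader. Neither gene was called with either drug.

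Some called synthetase genes also start near a gene on the other strand. ARHGAP9 starts 144 bp from MARS1 and had a log2 fold change of -0.02 with the Degrader (SE 0.142, adjusted p = 0.947), where MARS1 had -0.54. The neighbours were at -0.07 (SE 0.0814) for GARS-DT beside GARS1 and 0.16 (SE 0.182) for AC108448.3 beside CARS1. WDR25 beside WARS1 was at 0.13 (SE 0.0496) and UBFD1 beside EARS2 at 0.10 (SE 0.0633), and none of these was called. With DMSO, ARHGAP9 had 4.98 and 5.55 CPM and AC108448.3 had 4.08 and 3.20 CPM, so a missing call does not show that they stayed level. WDR25 was higher in the blocked fit (adjusted p = 0.0036). Beside mitochondrial genes that were not called, LYRM4, 74 bp from FARS2, fell with the Degrader (log2 fold change -0.22, SE 0.0615, adjusted p = 0.0352) and ORC3, 160 bp from RARS2, rose (0.25, adjusted p = 0.0116). Over all genes, 7.88% were called as lower with the Degrader and 7.39% as higher. TERF2IP beside KARS1, AC034231.1 beside TARS1, MRPS12 beside SARS2 and AC087588.3 beside YARS2 were not called. The calls for LYRM4 and ORC3 each ended without DMSO library 1, DMSO library 2 or Degrader library 2, that for ORC3 also without Degrader library 1 and that for LYRM4 also in DESeq2's Wald test.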

How the data were processed

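The deposited values are raw counts per gene interval, made by the authors, in 1 table with a column per library. The submitters' processing notes name cutadapt 1.14, Bowtie 1.2.2, SAMtools 1.3.1, HISAT2 2.2.1 and limma, with no role or order. Counting tool, strand use, the part of a gene counted, duplicate removal and spike-in scaling are not given in the sources used here, and each can change a count. The synthetase genes and all lists were chosen with earlier results of these data known.

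The analysis used edgeR 4.0.16 under R 4.3.3. filterByExpr (minimum count 10, minimum total 15) removed 431 genes and left 19902, all 35 synthetase genes among them. Library sizes were scaled by TMM (factors 0.997 to 1.003), which removes a change common to all genes. All 6 libraries entered 1 quasi-likelihood fit with a term per arm (3 residual degrees of freedom, common biological coefficient of variation 5.51%). That fit left out the pairing of libraries by replicate number. With the replicate number as a block, 15.7% of all genes were called as lower with the Degrader than with DMSO, against 7.88% without it. Between the drugs 5.35% were called as lower, against 0.151%. A gene not called in the main fit can thus be called in the blocked one. Every adjusted p is Benjamini-Hochberg over all genes tested, with 0.05 as threshold. A permutation test between 2 and 2 libraries cannot reach it. CPM uses TMM-scaled library sizes, except for the cell type markers, which use unscaled library totals. Counting errors cover counting only. Replicates differed beyond sampling noise (chi-square per degree of freedom 4.93 to 6.84). Values by library are given for genes called in a contrast and for the highest and lowest of each group in level or change, and for other lists for at most 4 called genes.

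Replicate numbers pair the libraries, since they mark the 2 independent experiments of the design text; the deviations of same-numbered libraries correlated at 0.177, 0.220 and 0.204 across genes between the arms. The alternatives were DESeq2 size factors, no filter, the replicate block, robust estimation, only the 4 libraries compared, DESeq2 1.42.0, and leaving out each library.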

Additional observations from a re-analysis of the deposited data

How the results depend on the processing

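Of 912 refits of single synthetase genes (76 gene results under 12 alternatives), 831 kept direction and side of the threshold, and 7 of 20 called results kept the call in all of them: AARS1, GARS1, IARS1, MARS1, VARS1, YARS1 and FARSB with the Degrader. DESeq2 size factors, no filter, the replicate block, robust estimation, the fit to 4 libraries and DESeq2's Wald test reversed no synthetase gene. The count of mitochondrial genes lower with the Degrader, 1, became 2 with DESeq2 size factors, 4 with the replicate block and 2 with robust estimation. With the replicate block, the mitochondrial count with GDC0068 rose from 0 to 3, and between the drugs the cytosolic count rose from 0 to 3 lower and the mitochondrial count from 0 to 1 higher. The replicate block moved no other count of cytosolic or mitochondrial synthetase genes by over 1.5 times. Among the other lists it moved counts against DMSO of the ATF4, accessory, scaffold and tRNA-sensing genes, as given with them. Between the drugs, the ATF4 list went from 0 calls to 4 of 19 genes lower with the Degrader and 1 higher. The accessory list went from 0 to 3 of 14 lower and 1 higher. The blocked shares over all genes were 5.35% lower and 5.03% higher. The cytosolic median with GDC0068, -0.1268, was -0.1312 with DESeq2 size factors, -0.1313 without the filter, -0.1307 with the replicate block, -0.1320 with 4 libraries and -0.1316 with DESeq2. GARS1 with GDC0068 was no longer called with 4 libraries or with DESeq2, nor FARSA with DESeq2; the cytosolic count with GDC0068 was then 8 and 7, and that with the Degrader was 9 with DESeq2. The cause of these shifts was not tested.

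Leaving out each library in turn moved the cytosolic count with GDC0068 between 0 and 8 and its median between -0.21 and -0.13. With the Degrader, the cytosolic median lay between -0.21 and -0.17, the mitochondrial median between -0.042 and -0.018 and the mitochondrial count between 0 and 3. In these fits some changes near 0 turned sign. With the Degrader, AARS2 ranged from -0.048 to 0.032, HARS2 from -0.10 to 0.029, VARS2 from -0.0011 to 0.11 and WARS2 from -0.021 to 0.15. With GDC0068, KARS1 ranged from -0.13 to 0.0061, QARS1 from -0.14 to 0.067, RARS1 from -0.048 to 0.020, AARS2 from -0.0034 to 0.037, HARS2 from -0.059 to 0.041, PARS2 from -0.068 to 0.11, RARS2 from -0.025 to 0.078 and WARS2 from -0.14 to 0.041. MARS2 had the fewest counts, 140 to 239, and the largest standard error of the 35 genes with the Degrader. The cause of that error was not tested.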
